A study of Homo sapiens with 24 samples.

Results

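Polycomb repressive complex 2 (PRC2) is described here through 8 genes among the 57820 in the counts: the catalytic subunits EZH1 and EZH2, the core subunits EED and SUZ12, and the accessory subunits JARID2, PHF1, PHF19 and MTF2. The genes were chosen by name, each name had 1 row, and all 8 passed the filter on low counts in every comparison. Their RNA was counted in U2OS, a human osteosarcoma line, with and without ID3 knockout (WT and ID3-KO), in 24 libraries with 3 biological replicates in each of 8 groups. In the groups labelled U2OS, WT and ID3-KO cells were untreated or treated for 24 h with mocetinostat, an inhibitor of class I histone deacetylases, and collected before recovery. In the groups labelled AID-DIvA U2OS, a derivative that carries the AsiSI restriction enzyme, WT and ID3-KO cells were untreated or treated for 24 h and then kept for 24 h in fresh medium without the drug.

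Several facts limit these groups. The collection before recovery is inferred from the methods, and recovery and cell line label coincide, so that their effects cannot be told apart. The library names of the U2OS groups also carry the name DivA. Titles and treatment entries of the AID-DIvA samples name opposite treatments. The titles were followed, and the direction of every AID-DIvA treatment change depends on them. The mocetinostat dose and the number of clones behind each knockout are not given in the sources used here. In bulk RNA, a change in the share of cells in one phase of the cycle and a change in RNA per cell cannot be told apart.

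PRC2 methylates histone H3 at lysine 27, a mark of silenced chromatin that the PRC1 complexes can read. EZH2 or its paralog EZH1 carries the methyltransferase activity, which requires EED and SUZ12. EED binds the finished mark and stimulates the enzyme, while SUZ12 is the scaffold on which accessory subunits assemble. The Polycomb-like proteins PHF1, MTF2 and PHF19 define the PRC2.1 form and help the complex to find CpG-rich DNA, while JARID2 belongs to PRC2.2. EZH2 is typically abundant in dividing cells and is a known target of E2F factors, the regulators of S phase entry, whereas EZH1 is also kept in resting cells.

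The promoters of the genes whose levels moved most, and of the catalytic pair, are shown because the members' changes are set beside those of proliferation genes below. Each sequence holds the 250 bases before the RefSeq transcription start nearest to the gene's 5′ end in the counts, read on the gene's strand, and all 8 promoters were matched once to GRCh37. Capitals mark E2F letters (TTTCCCGC, TTTGGCGC, TTTCGCGC or TTTGCCGC) and CCAAT boxes on either strand, and these motifs do not overlap each other here.
PHF19, chr9:123639467-123639716, minus strand: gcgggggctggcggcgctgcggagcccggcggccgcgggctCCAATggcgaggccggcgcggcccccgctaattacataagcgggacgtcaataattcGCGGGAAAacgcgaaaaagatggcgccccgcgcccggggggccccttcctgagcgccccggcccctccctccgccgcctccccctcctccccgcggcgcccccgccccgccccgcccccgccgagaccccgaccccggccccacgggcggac
JARID2, chr6:15246050-15246299, plus strand: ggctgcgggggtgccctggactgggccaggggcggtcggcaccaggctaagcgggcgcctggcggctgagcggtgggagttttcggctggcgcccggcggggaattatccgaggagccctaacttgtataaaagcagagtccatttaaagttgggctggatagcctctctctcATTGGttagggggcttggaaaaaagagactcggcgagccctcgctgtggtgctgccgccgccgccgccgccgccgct
EZH2, chr7:148581384-148581633, minus strand: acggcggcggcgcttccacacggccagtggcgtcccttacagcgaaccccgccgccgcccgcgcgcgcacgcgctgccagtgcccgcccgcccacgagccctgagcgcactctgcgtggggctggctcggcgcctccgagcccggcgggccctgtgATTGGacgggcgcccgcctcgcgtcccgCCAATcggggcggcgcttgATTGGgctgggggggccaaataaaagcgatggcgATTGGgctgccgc
EZH1, chr17:40897059-40897308, minus strand: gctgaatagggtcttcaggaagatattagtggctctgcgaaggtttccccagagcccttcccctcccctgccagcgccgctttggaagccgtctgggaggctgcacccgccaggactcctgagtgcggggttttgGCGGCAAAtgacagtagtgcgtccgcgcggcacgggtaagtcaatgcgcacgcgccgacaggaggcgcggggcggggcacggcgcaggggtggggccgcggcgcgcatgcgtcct
SUZ12, chr17:30263776-30264025, plus strand: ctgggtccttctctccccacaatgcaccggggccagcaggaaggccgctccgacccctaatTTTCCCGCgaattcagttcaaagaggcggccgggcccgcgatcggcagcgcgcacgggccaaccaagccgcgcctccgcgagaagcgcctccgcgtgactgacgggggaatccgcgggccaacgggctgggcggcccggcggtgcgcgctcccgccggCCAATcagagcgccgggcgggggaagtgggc
PHF19 held E2F letters 152 bases before its start, SUZ12 189 bases and EZH1 115 bases before, while those of EZH2 and MTF2 began 1 and 5 bases after the start, outside the printed stretch. E2F letters were thus found in 5 of 8 member promoters of 300 bases, from 250 before to 50 after the start, and in 3.31% of the 35116 promoters of that length in the RefSeq table (GRCh38.p14). The CCAAT box was found in 5 of 8 and in 34.6% of all promoters. EZH2 alone among the 8 held 4 CCAAT boxes, at 94, 66, 47 and 13 bases before the start, and EED and JARID2 had 1 each with no E2F letters. The CHR letters (TTTGAA), known from genes of the G2/M phase, were found in SUZ12 only and in 15.2% of all promoters. The PHF19, EZH2 and EZH1 stretches overlap their counted genes by 140, 30 and 13 bases, since their RefSeq starts lie inside those genes. The shares were taken over all promoters and not over ones matched for base composition. A match describes letters and not a bound factor.

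Total counts ran from 37878751 to 76906266 per library, and no member had fewer than 731 counts in any library, so that the spread between replicates and not the depth sets the precision. Values are given in CPM, counts scaled to library size with TMM factors over all 24 libraries, and levels of different genes are compared in TPM, the authors' values that also divide by exonic length. Calls rest on edgeR's quasi-likelihood fit, with p-values adjusted over all genes tested and a limit of 0.05. The 95% intervals use a normal distribution with the fit's standard errors, and so are narrower than its F test implies. Replicate 1 of the untreated U2OS WT cells stood apart: the chi-square per gene against its fellow replicates was 102.9 and 91.1, with 27.27 the highest in any other pair, and values without it are given where a call changed or a called value moved by over 1.5 times. ID3, the targeted gene, was counted in every library and was lower in KO cells in all 4 matched comparisons, by 0.56 to 1.21 on the log2 scale, but the counts do not test the edit itself. VIM (434 to 893 CPM by group), COL1A1 and SPARC were abundant, while COL1A2 was at most 1.24 CPM and TWIST1 was near 0. PTPRC and CD3E stayed at most at 0.35 CPM by group, and EPCAM lay between 4.89 and 10.1 CPM.

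In untreated cells PHF1 and PHF19 were the most abundant members per length. In untreated AID-DIvA WT cells PHF19 stood at 59.9 ± 1.60 TPM, PHF1 at 57.3 ± 1.98, EZH2 at 27.9 ± 1.45 and SUZ12 at 25.6 ± 2.17 (SD, n = 3 each). MTF2 followed at 23.8 ± 1.48 TPM, JARID2 at 19.6 ± 0.13, EZH1 at 13.9 ± 0.78 and EED at 12.7 ± 0.90 (SD, n = 3 each). Neighbours in this order whose libraries overlapped were PHF19 and PHF1, EZH2 and SUZ12, SUZ12 and MTF2, and EZH1 and EED. In these 3 libraries MTF2 stayed above JARID2 and JARID2 above EZH1. In untreated U2OS WT cells PHF1 led at 82.4 ± 7.50 TPM, before PHF19 at 50.2 ± 2.17 (SD, n = 3 each).

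**Figure D1:**
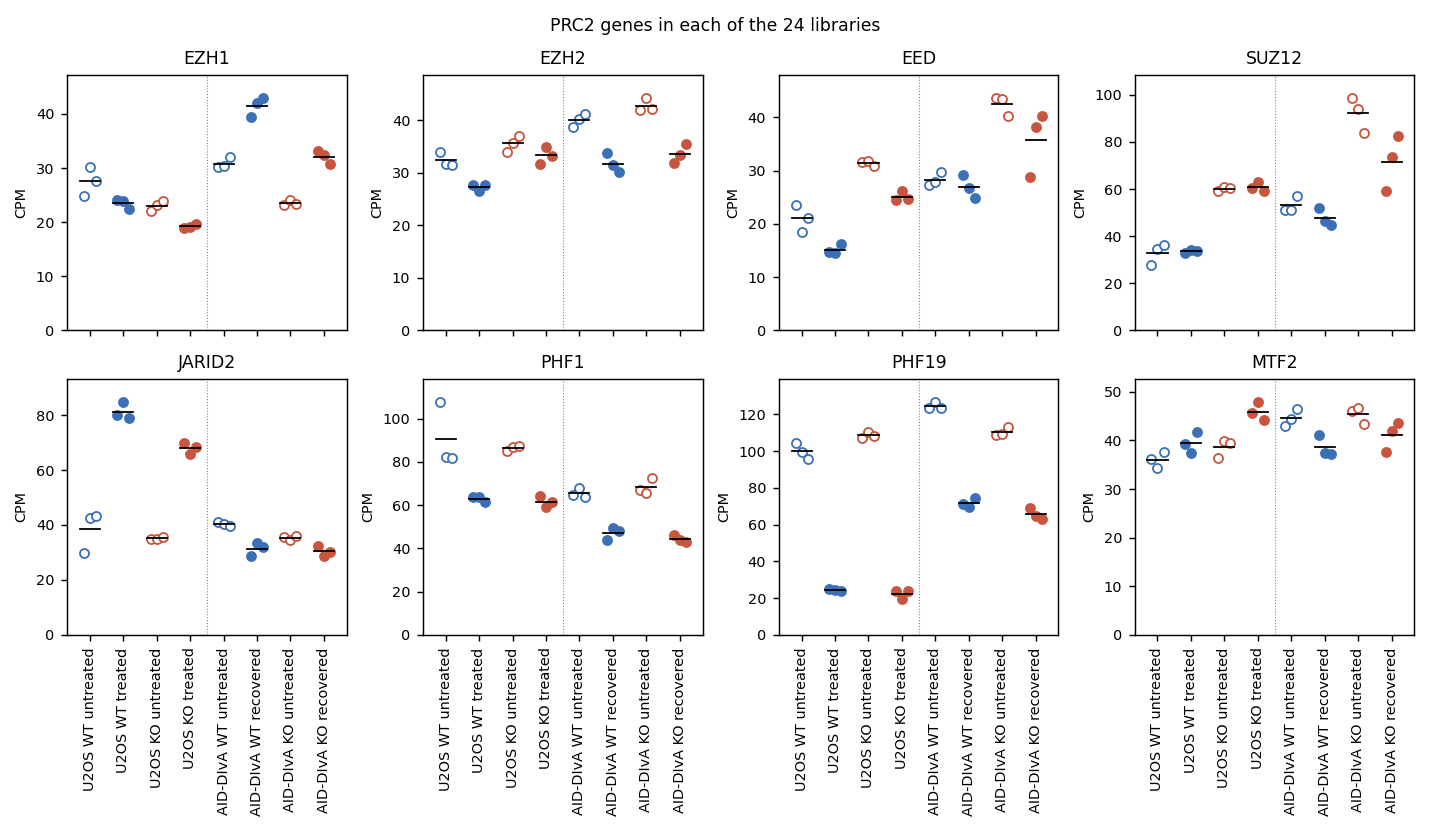
CPM (linear axis from 0) of the 8 PRC2 genes in each of the 24 libraries, by group; open circles are untreated, filled circles treated or recovered, blue WT, red KO, and the black line is the mean of 3 replicates. PHF19 was at 19.7 to 25.0 CPM and JARID2 at 66.0 to 84.8 CPM in the 6 treated U2OS libraries, while by group mean SUZ12 and EED were higher in KO than in WT cells.

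The comparison of treated with untreated cells before recovery asks how each genotype responds to mocetinostat itself. In U2OS WT cells 5 of the 8 members passed the test (1 higher, 4 lower), where 48.9% of all 21797 genes tested did (26% higher, 22.9% lower). In U2OS KO cells 6 passed (2 higher, 4 lower), where 69.9% of 21176 genes did (35.8% higher, 34% lower). Both shares are near or not far above the background, so that the sizes of single members carry the description. Beyond a log2 fold change of 1 there were 2 members in WT cells (18.6% of all genes) and 1 in KO cells (20.3% of all genes).

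PHF19, a Polycomb-like subunit that binds the H3K36 methylation mark, fell furthest. Its level was 104.5, 99.5 and 95.6 CPM in the untreated U2OS WT libraries and 25.0, 24.1 and 23.9 CPM after treatment. In KO cells it was 107.4, 110.4 and 108.1 CPM before and 23.9, 19.7 and 23.6 CPM after treatment. Every treated library lay below every untreated library by a wide gap. The log2 fold change was -2.03 in WT cells (standard error 0.075, fold 0.245, edgeR adjusted p = 1.5e-06) and -2.27 in KO cells (standard error 0.06, fold 0.207, edgeR adjusted p = 4e-19). PHF19 thus moved from the second place among the members by TPM to 13.3 ± 0.17 TPM in treated WT cells (SD, n = 3), close to EZH1 at 12.1 ± 0.47 TPM (SD, n = 3).

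JARID2, the PRC2.2 subunit that resembles a histone demethylase without its activity, moved the other way. The untreated U2OS WT libraries held 29.9, 42.4 and 43.3 CPM and the treated ones 80.3, 84.8 and 79.0 CPM. The KO libraries held 35.0, 34.7 and 35.7 CPM untreated and 69.9, 66.0 and 68.4 CPM treated. The groups did not overlap in either genotype, and the lowest untreated value was that of the library that stood apart. The log2 fold change was 1.09 in WT cells (standard error 0.14, edgeR adjusted p = 0.00046), 0.93 without that library, and 0.96 in KO cells (standard error 0.05, edgeR adjusted p = 2.3e-14).

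The other accessory subunits moved less. PHF1, which like PHF19 reads methylated H3K36, fell by 0.52 on the log2 scale in WT cells (edgeR adjusted p = 0.0083) and by 0.48 in KO cells (edgeR adjusted p = 2.8e-09). Its untreated U2OS libraries spanned 81.8 to 107.6 CPM and its treated ones 59.0 to 64.4 CPM, without overlap, and the value of 107.6 CPM belonged to the library that stood apart. MTF2, the Polycomb-like subunit prominent in embryonic stem cells, rose by 0.26 in KO cells, from 38.6 ± 1.86 to 45.9 ± 1.85 CPM (SD, n = 3 each, edgeR adjusted p = 0.00013). In WT cells its change was 0.14 (standard error 0.08, edgeR adjusted p = 0.16), with overlapping groups.

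The catalytic pair and the core changed by at most 0.47 on the log2 scale before recovery. EZH2 was at 34.0, 31.7 and 31.5 CPM in untreated and at 27.7, 26.6 and 27.7 CPM in treated WT cells, a change of -0.24 (standard error 0.07, edgeR adjusted p = 0.027) whose call was lost when any of 3 single libraries was left out. In KO cells the groups overlapped and the change was -0.09 (95% interval -0.19 to 0.01, edgeR adjusted p = 0.14). EZH1 fell in KO cells by 0.26 (edgeR adjusted p = 0.0003) and its change was -0.22 in WT cells (standard error 0.09, edgeR adjusted p = 0.078). EED fell in both, from 23.6, 18.5 and 21.0 CPM to 14.7, 14.5 and 16.2 CPM in WT cells and from 31.6, 31.8 and 30.8 CPM to 24.5, 26.2 and 24.6 CPM in KO cells. These changes were -0.47 (edgeR adjusted p = 0.0084) and -0.32 (edgeR adjusted p = 1e-05). SUZ12 changed by 0.04 in WT cells (95% interval -0.16 to 0.24) and by 0.03 in KO cells (95% interval -0.06 to 0.12), and neither passed the test. Without replicate 1 of the untreated U2OS WT cells, 7 members were called in WT cells, with MTF2 higher and EZH1 lower added, where 66.4% of 22423 genes were. PHF1 then fell by 0.375.

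**Figure D2:**
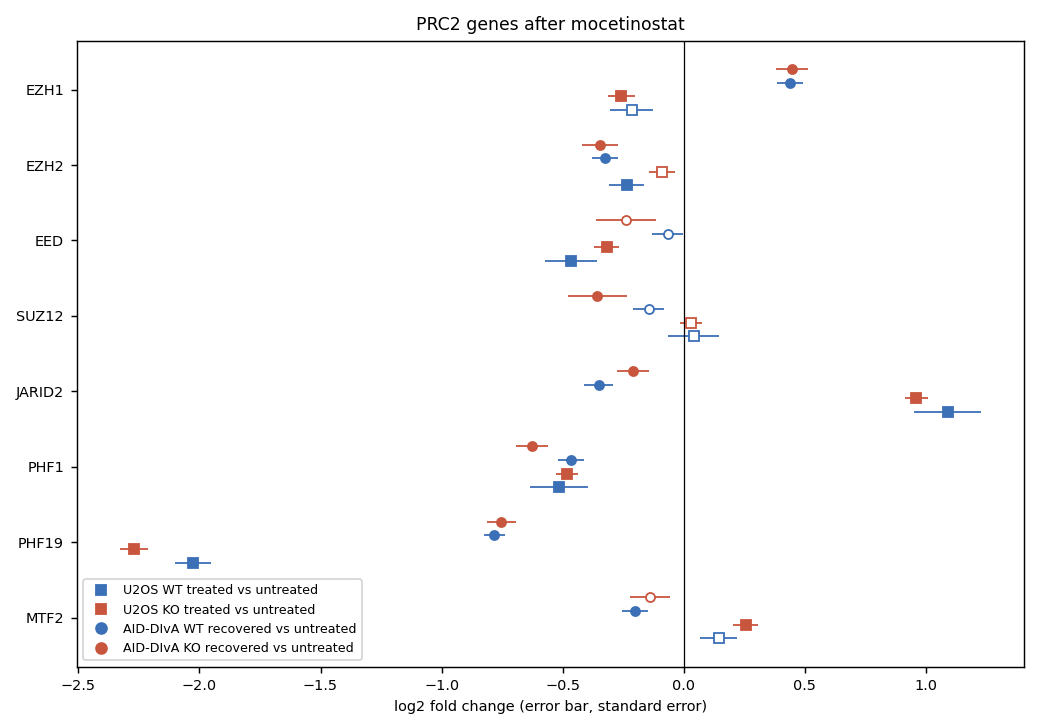
Log2 fold change of the 8 PRC2 genes after mocetinostat against untreated cells of the same line and genotype, with standard errors; squares are U2OS before recovery, circles AID-DIvA after recovery, blue WT, red KO, and filled symbols passed the test. PHF19 (-2.03 and -2.27) and JARID2 (1.09 and 0.96) were far from 0 before recovery, and EZH1 (0.44 and 0.45) stood alone on the positive side after it.

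The comparison of recovered with untreated AID-DIvA cells asks what is still different after the drug was withdrawn. In WT cells 6 members passed the test (1 higher, 5 lower), where 46.9% of 20289 genes did (23.9% higher, 23% lower, 7.38% beyond 1 on the log2 scale), and in KO cells 6 passed (1 higher, 5 lower), where 40.1% of 20362 genes did (20.2% higher, 19.9% lower, 7.46% beyond 1 on the log2 scale). No member passed beyond a log2 fold change of 1.

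EZH1, the catalytic subunit known from resting cells, was the member that rose. Its WT libraries held 30.1, 30.4 and 32.0 CPM untreated and 39.5, 42.1 and 43.0 CPM recovered. Its KO libraries held 23.1, 24.1 and 23.3 CPM untreated and 33.1, 32.4 and 30.7 CPM recovered. The groups did not overlap. The rise was 0.44 in WT cells (standard error 0.05, edgeR adjusted p = 1.7e-05) and 0.45 in KO cells (standard error 0.07, edgeR adjusted p = 0.00053).

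EZH2 fell in the same libraries. It went from 38.8, 40.3 and 41.1 CPM to 33.7, 31.5 and 30.1 CPM in WT cells and from 41.9, 44.3 and 42.2 CPM to 31.8, 33.5 and 35.5 CPM in KO cells. The changes were -0.33 (standard error 0.05, edgeR adjusted p = 0.00026) and -0.35 (standard error 0.08, edgeR adjusted p = 0.0048), with no overlap. The ratio of EZH2 to EZH1 in TPM therefore dropped from 2.01 ± 0.04 to 1.19 ± 0.12 in WT cells and from 2.81 ± 0.02 to 1.62 ± 0.15 in KO cells (SD, n = 3 each). Before recovery the same ratio was 1.83 ± 0.25 untreated and 1.80 ± 0.10 treated in WT cells, and 2.39 ± 0.01 and 2.68 ± 0.14 in KO cells (SD, n = 3 each).

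PHF19 was lower again after recovery, but by less. It held 123.3, 126.7 and 123.3 CPM in untreated and 71.4, 69.6 and 74.6 CPM in recovered WT cells, and 108.7, 109.3 and 113.2 CPM and 69.2, 64.6 and 62.9 CPM in KO cells. Its changes were -0.78 (edgeR adjusted p = 1.4e-08) and -0.75 (edgeR adjusted p = 1e-05). JARID2, which had risen before recovery, was lower than in untreated cells: 41.0, 40.3 and 39.7 CPM against 28.8, 33.5 and 32.1 CPM in WT cells, a change of -0.35 (edgeR adjusted p = 0.00031). In KO cells JARID2 changed by -0.21 (edgeR adjusted p = 0.03), and this call was lost when any of 5 single libraries was left out. PHF1 fell in both genotypes, by 0.47 in WT cells (edgeR adjusted p = 1.1e-05) and by 0.63 in KO cells (edgeR adjusted p = 7.3e-05), and so fell in all 4 treatment comparisons. MTF2 fell in WT cells by 0.20 (edgeR adjusted p = 0.0074) and changed by -0.14 in KO cells (edgeR adjusted p = 0.2).

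The core subunits were less clear after recovery. SUZ12 went from 98.8, 93.8 and 84.0 CPM to 59.1, 73.5 and 82.5 CPM in KO cells, a change of -0.36 (standard error 0.12, edgeR adjusted p = 0.04). The recovered KO libraries were far apart, and the call was lost when any of 4 single libraries was left out. In WT cells SUZ12 changed by -0.15 (edgeR adjusted p = 0.068). EED changed by -0.07 in WT cells (95% interval -0.19 to 0.06, edgeR adjusted p = 0.43) and by -0.24 in KO cells (95% interval -0.481 to 0.001, edgeR adjusted p = 0.15). Neither passed the test. When recovered WT replicate 1 was dropped, EED fell in WT cells by 0.131 (edgeR adjusted p = 0.036) and SUZ12 by 0.21 (edgeR adjusted p = 0.00016). All 8 members were then called, where 10890 of 20746 genes tested were. When recovered KO replicate 1 was dropped, the change in KO cells was -0.09 for EED (edgeR adjusted p = 0.26) and -0.22 for SUZ12 (edgeR adjusted p = 0.023).

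The difference between the responses after and before recovery was fitted within each genotype over its 12 libraries, and it holds the recovery and the cell line label together. In WT cells 5 of the 8 members differed (3 with the more positive response after recovery, 2 with the more negative), where 42.2% of 22238 genes did (20.5% higher, 21.7% lower, 15.2% beyond 1 on the log2 scale). In KO cells 6 did (2 and 4), where 52.5% of 21947 genes did (24.8% higher, 27.7% lower, 17.5% beyond 1 on the log2 scale). JARID2 differed by -1.45 in WT cells (standard error 0.15, edgeR adjusted p = 6.7e-06) and -1.18 in KO cells (standard error 0.08, edgeR adjusted p = 1.3e-09). PHF19 differed by 1.24 in WT cells (standard error 0.09, edgeR adjusted p = 1.3e-07) and 1.51 in KO cells (standard error 0.09, edgeR adjusted p = 2.8e-10). EZH1 differed by 0.65 (edgeR adjusted p = 0.00018) and 0.70 (edgeR adjusted p = 1.5e-06). PHF1 differed by 0.045 in WT cells (95% interval -0.23 to 0.32) and by -0.15 in KO cells (95% interval -0.31 to 0.01), and neither passed the test.

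The genotype by treatment interaction asks whether KO and WT cells respond differently. By edgeR it called 0 of the 8 members in AID-DIvA cells, where 1.21% of 21265 genes were called (0.762% higher, 0.451% lower, 0.31% beyond 1 on the log2 scale), and 0 in U2OS cells, where 2.15% of 22647 genes were (1.1% higher, 1.06% lower, 0.68% beyond 1 on the log2 scale). At an unadjusted p below 0.05 there were 0 and 1 members, and DESeq2 called 0 in both. The 1 was PHF19 in U2OS cells, with a fall larger in KO cells by 0.24 (KO minus WT -0.24, 95% interval -0.44 to -0.04, edgeR adjusted p = 0.32). It passed without replicate 1 of the untreated U2OS WT cells (-0.28, edgeR adjusted p = 0.014), where 1 member and 9.03% of 23164 genes were called. The 95% intervals of the other members, which are too narrow, reached up to 0.382 (EED) and down to -0.413 (JARID2) in U2OS cells. In AID-DIvA cells they reached up to 0.325 (JARID2) and down to -0.499 (SUZ12).

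The comparison of KO with WT cells asks which members differ by genotype. It shares its libraries with the treatment comparisons above. In untreated AID-DIvA cells 5 members passed (2 higher in KO cells, 3 lower), where 36.7% of 20441 genes did (18.6% higher, 18.1% lower, 4.58% beyond 1 on the log2 scale), and in untreated U2OS cells 2 passed (2 higher), where 15.2% of 20621 genes did (6.56% higher, 8.63% lower, 4.26% beyond 1 on the log2 scale). Without replicate 1 of the untreated U2OS WT cells, 6 passed in U2OS cells (4 higher, 2 lower), where 41.1% of 20973 genes did. In recovered AID-DIvA cells 3 passed (2 higher, 1 lower), where 23.7% of 20100 genes did (12.6% higher, 11.1% lower, 4.76% beyond 1 on the log2 scale), and in treated U2OS cells 6 passed (4 higher, 2 lower), where 37.9% of 21800 genes did (19% higher, 19% lower, 3.49% beyond 1 on the log2 scale).

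SUZ12, the scaffold, was higher in KO cells in all 4 comparisons. Untreated U2OS cells held 27.9, 34.7 and 36.3 CPM in WT and 59.1, 60.7 and 60.3 CPM in KO libraries, and treated ones 33.0, 34.3 and 33.7 CPM in WT and 60.5, 63.2 and 59.3 CPM in KO libraries. Untreated AID-DIvA cells held 51.3, 51.1 and 57.0 CPM in WT and the KO values given above. The groups never overlapped. The log2 difference was 0.86 in untreated (standard error 0.105, edgeR adjusted p = 0.0019) and 0.86 in treated U2OS cells (standard error 0.05, edgeR adjusted p = 2.4e-14), 0.77 in untreated (standard error 0.06, edgeR adjusted p = 3.7e-08) and 0.57 in recovered AID-DIvA cells (standard error 0.12, edgeR adjusted p = 0.0065). SUZ12P, a partial copy of SUZ12 with which reads could be shared, was at 15.7 ± 1.14 CPM in untreated U2OS WT and 16.5 ± 0.42 CPM in KO cells (SD, n = 3 each), a log2 difference of 0.07 that did not pass the test. In treated U2OS cells SUZ12P was higher in KO cells by 0.29 (edgeR adjusted p = 0.0029).

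EED was the other member higher in KO cells throughout, by 0.58 in untreated U2OS (edgeR adjusted p = 0.0076), 0.73 in treated U2OS (edgeR adjusted p = 9.7e-11), 0.56 in untreated AID-DIvA (edgeR adjusted p = 4e-07) and 0.40 in recovered AID-DIvA cells (edgeR adjusted p = 0.045). In recovered AID-DIvA cells the groups overlapped, with 29.1, 26.6 and 24.8 CPM in WT and 28.8, 38.2 and 40.2 CPM in KO libraries, and the call was lost when any of 5 single libraries was left out. EZH1 was lower in KO cells by 0.41 in untreated AID-DIvA (edgeR adjusted p = 1e-05), by 0.39 in recovered AID-DIvA (edgeR adjusted p = 0.0027) and by 0.29 in treated U2OS cells (edgeR adjusted p = 0.00018). In untreated U2OS cells the EZH1 difference was -0.26 (edgeR adjusted p = 0.098), and -0.325 when replicate 1 of the WT cells was dropped (edgeR adjusted p = 4.2e-06). EZH2 differed by 0.29 in treated U2OS cells (edgeR adjusted p = 0.00011) and by 0.07 to 0.13 in the other 3 comparisons, where it did not pass, though it did in untreated U2OS cells when untreated WT replicate 1 was dropped (0.172, edgeR adjusted p = 0.0039). JARID2 was lower in KO cells by 0.22 in untreated AID-DIvA (edgeR adjusted p = 0.0021) and by 0.25 in treated U2OS cells (edgeR adjusted p = 6e-05). PHF19 was lower by 0.195 in untreated AID-DIvA KO cells (edgeR adjusted p = 0.0021). In untreated U2OS cells its difference had the other sign, 0.12 (edgeR adjusted p = 0.3) with every KO library above every WT library, and 0.155 when untreated WT replicate 1 was dropped (edgeR adjusted p = 0.00065). JARID2 in untreated U2OS cells was lower in KO cells by 0.285 when that library was dropped (edgeR adjusted p = 1.6e-06), against -0.135 with it (edgeR adjusted p = 0.56). MTF2 was higher by 0.22 in treated U2OS KO cells (edgeR adjusted p = 0.0015).

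Of the genes next to SUZ12, EED and EZH1 that passed the test, most differed in the same direction as the member. This comparison was chosen after the members' values were seen and was limited to genes at a mean of at least 1 CPM. Over all genes tested, without that limit, 18.6% were higher and 18.1% lower in untreated AID-DIvA KO cells. In untreated U2OS KO cells 6.56% were higher and 8.63% lower. Within 1 Mb of SUZ12 (chromosome 17, 30264037 to 30328064, GRCh37, plus strand), 12 of 16 genes tested were higher and 1 lower in untreated AID-DIvA KO cells, with a median log2 difference of 0.50, and 10 of 16 were higher and 2 lower in untreated U2OS KO cells, with a median of 0.54. Within 1 Mb of EED (chromosome 11, 85955586 to 85989855, plus strand), 8 of 10 were higher and 0 lower in AID-DIvA (median 0.47) and 5 of 9 higher and 0 lower in U2OS cells (median 0.45). Around EZH1 (chromosome 17, 40852293 to 40897071, minus strand), 41 of 60 were lower and 5 higher in AID-DIvA (median -0.35) and 23 of 60 lower and 5 higher in U2OS cells (median -0.31). Around the other 5 members the medians lay between -0.114 and 0.095. When untreated U2OS WT replicate 1 was dropped, the U2OS medians were 0.58 around SUZ12, 0.46 around EED and -0.29 around EZH1, and around the other 5 members -0.16 to 0.056. The part of these neighbourhoods in the members' differences was not tested. Over 14990 genes at a mean of at least 1 CPM the KO minus WT differences of untreated AID-DIvA and untreated U2OS cells, which share no library, had a Pearson r of 0.847 (0.857 over 14998 genes when that replicate was dropped) across genes, which are not independent replicates.

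**Figure D3:**
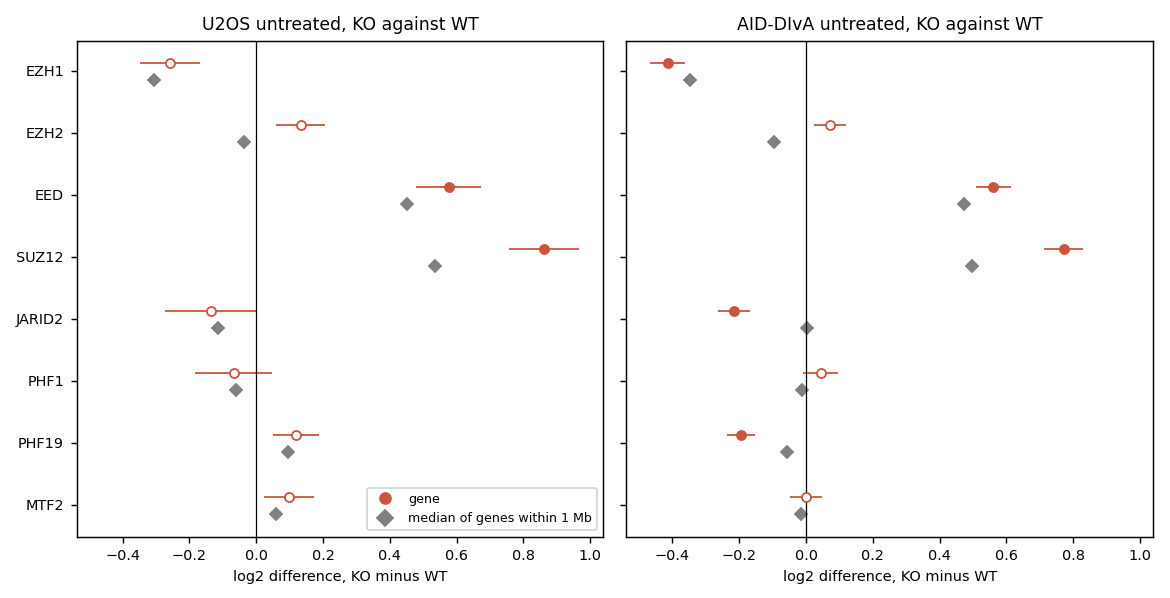
Log2 difference of KO minus WT in untreated U2OS (left) and AID-DIvA (right) cells for the 8 PRC2 genes (red circles with standard errors, filled where the test was passed) and the median over the genes tested within 1 Mb of each (grey diamonds). SUZ12 and EED lay on the positive and EZH1 on the negative side together with their neighbours.

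Other PRC2 subunits were taken from a list of 7 genes, all of which were tested. Before recovery 1 rose and 3 fell in WT cells (1 and 4 when untreated WT replicate 1 was dropped) and 2 rose and 2 fell in KO cells. After recovery 1 rose and 2 fell in each genotype. Of all genes tested, 48.9% in WT cells (66.4% without that replicate) and 69.9% in KO cells were called before recovery. After it, 46.9% and 40.1% were. Against WT cells, 4 of the 7 were higher and 0 lower in untreated AID-DIvA KO cells, where 18.6% of all genes were higher. In untreated U2OS KO cells 2 were higher and 0 lower, where 6.56% of all genes were higher. Without that replicate 5 were higher and 0 lower, where 41.1% of all genes were called. RBBP4, a histone-binding subunit shared with other chromatin complexes, fell before recovery by 0.57 in WT cells (edgeR adjusted p = 0.00037) and by 0.53 in KO cells (edgeR adjusted p = 4.7e-10). By group mean RBBP4 was at 221.6 CPM in WT and 307.3 CPM in KO cells of untreated AID-DIvA, and at 185.3 and 251 CPM in untreated U2OS. Of the genes tested within 1 Mb of RBBP4, 27 of 34 were higher and 1 lower in untreated AID-DIvA KO cells (median 0.29). In untreated U2OS KO cells 10 of 36 were higher and 2 lower (median 0.21), or 24 and 3 without that replicate. AEBP2, which shares PRC2.2 with JARID2, fell after recovery by 0.28 (edgeR adjusted p = 0.00059) and 0.30 (edgeR adjusted p = 0.012). EZHIP, listed as CXorf67 and known as an inhibitor of PRC2 activity that is silent in most tissues, was abundant in all 8 groups, at 120.9 to 151.5 TPM by group mean, and its ratio to EZH2 in TPM was 4.50 to 6.74 by group mean. EZHIP fell before recovery in KO cells by 0.35 (edgeR adjusted p = 7.2e-06) and changed by -0.36 in WT cells (edgeR adjusted p = 0.064). Its untreated WT libraries held 110.1, 78.5 and 78.8 CPM, the first from the library that stood apart, and without that library EZHIP fell by 0.18 (edgeR adjusted p = 5.7e-05).

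EPOP, a PRC2.1 subunit that excludes some partners from the complex, listed in the counts as C17orf96, was low in WT cells and far higher in KO cells. Its counts were 45, 47 and 29 in the untreated U2OS WT libraries and 588, 713 and 680 in the KO libraries. In untreated AID-DIvA cells its counts were 17, 14 and 24 in WT and 603, 741 and 633 in KO libraries. The log2 difference of EPOP was 4.22 in untreated U2OS cells (standard error 0.12, edgeR adjusted p = 5.3e-06) and 5.04 in untreated AID-DIvA cells (standard error 0.14, edgeR adjusted p = 8.6e-13). In KO cells EPOP rose with treatment by 0.91 before recovery (edgeR adjusted p = 8.7e-11) and by 0.35 after it (edgeR adjusted p = 0.027). The interaction of genotype and treatment for EPOP was 1.175 in U2OS cells (standard error 0.24, edgeR adjusted p = 0.019) and -0.07 in AID-DIvA cells (edgeR adjusted p = 0.95). The 35 genes tested within 1 Mb of EPOP had median KO minus WT differences of 0.11 in U2OS and 0.13 in AID-DIvA cells.

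**Figure D4:**
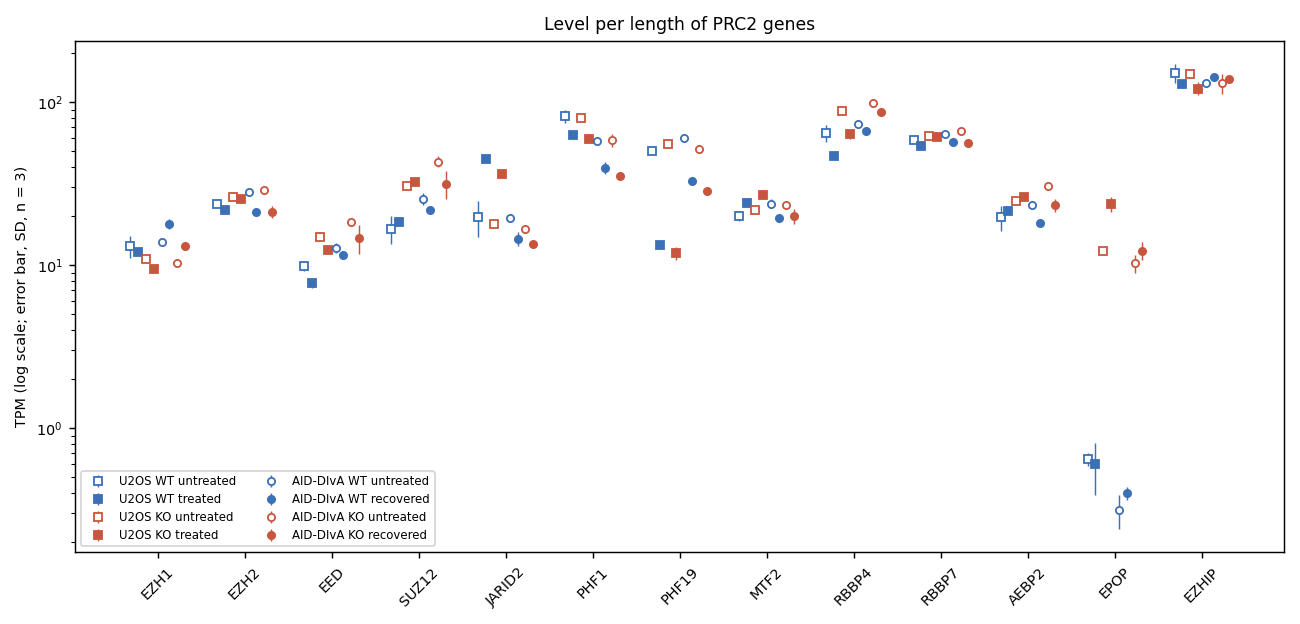
Mean TPM (log axis, SD over 3 replicates) of the 8 PRC2 genes and of 5 other PRC2 genes by group; squares are U2OS, circles AID-DIvA, open symbols untreated, filled symbols treated or recovered, blue WT, red KO. EZHIP lay at 120.9 to 151.5 TPM, and EPOP at 0.31 to 0.64 TPM in WT and 10.3 to 23.7 TPM in KO cells.

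PHF19, EZH2 and JARID2 were set beside 16 proliferation genes, chiefly replication and mitosis genes, because EZH2 is known to be abundant in dividing cells. The mean log2 CPM of these genes went from 8.13 ± 0.006 to 7.43 ± 0.005 in U2OS WT and from 8.27 ± 0.009 to 7.62 ± 0.014 in U2OS KO cells, and from 8.27 ± 0.026 to 8.10 ± 0.009 in AID-DIvA WT and from 8.32 ± 0.009 to 8.06 ± 0.029 in AID-DIvA KO cells (SD, n = 3 each). Before recovery 0 of 16 rose and 13 fell in WT cells (0 and 15 when untreated WT replicate 1 was dropped), and 1 rose and 15 fell in KO cells. Of all genes tested, 48.9% in WT cells (66.4% without that replicate) and 69.9% in KO cells were called. MCM5, a subunit of the replicative helicase, fell by 1.61 and 1.67. After recovery 8 rose and 8 fell in WT cells and 7 rose and 8 fell in KO cells, where 46.9% and 40.1% of all genes were called. RRM2, a subunit of ribonucleotide reductase, was lower by 0.81 and 0.98. The groups with the lowest proliferation mean, treated U2OS WT and KO cells, were those with the lowest PHF19 and the highest JARID2. EZH2 was lowest in treated U2OS WT cells, at 27.3 ± 0.64 CPM, while in treated U2OS KO cells, at 33.3 ± 1.65 CPM, it overlapped recovered AID-DIvA WT cells, at 31.8 ± 1.83 CPM (SD, n = 3 each). The members differed in their Pearson r of log2 CPM with the proliferation mean over the 24 libraries. It was 0.966 for PHF19, 0.754 for EZH2, 0.728 for EED and 0.438 for SUZ12. For EZH1 it was 0.38, for PHF1 0.209, for MTF2 -0.01 and for JARID2 -0.871. The 24 libraries fall into 8 groups, and no r was taken within a cell line label. In AID-DIvA cells, where the proliferation mean fell after recovery, JARID2 fell too, from 40.3 to 31.4 CPM in WT and from 35.25 to 30.5 CPM in KO cells. EZH1 rose there, from 30.8 to 41.5 CPM in WT and from 23.5 to 32.05 CPM in KO cells. Both thus ran against the sign of their r over all libraries. The part of proliferation in the members' changes was not tested.

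**Figure D5:**
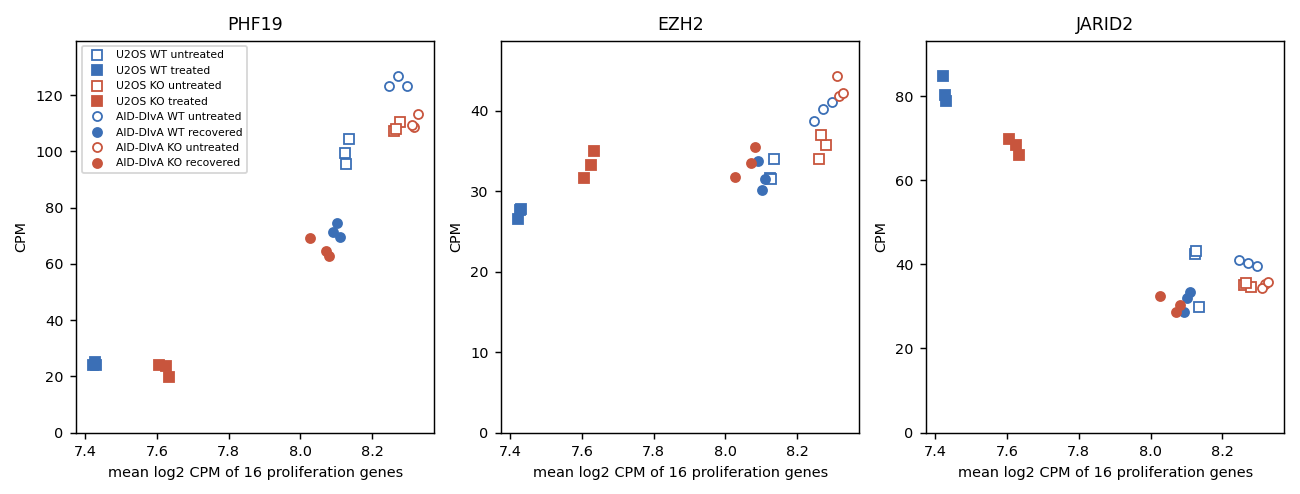
CPM (linear axis from 0) of PHF19, EZH2 and JARID2 against the mean log2 CPM of 16 proliferation genes in each of the 24 libraries; squares are U2OS, circles AID-DIvA, open symbols untreated, filled symbols treated or recovered, blue WT, red KO. The 6 treated U2OS libraries, at 7.43 and 7.62 by group mean, had the lowest PHF19 (19.7 to 25.0 CPM) and the highest JARID2 (66.0 to 84.8 CPM).

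PRC1 genes, whose complexes ubiquitylate histone H2A and in part bind the PRC2 mark, were all 24 tested. Before recovery 6 rose and 11 fell in WT cells, with a median log2 fold change of -0.26, and 8 rose and 15 fell in KO cells, with a median of -0.33. The shares of all genes called were 48.9% and 69.9%. When the library that stood apart was dropped, 8 rose and 13 fell in WT cells, where 66.4% of all genes were called. Over all genes tested the medians were 0.006 and 0.001. L3MBTL2, a subunit of a PRC1 form that contains E2F6, fell by 1.27 in WT cells (edgeR adjusted p = 2.6e-05) and by 1.43 in KO cells (edgeR adjusted p = 9.4e-17), while BCORL1 rose by 1.26 and 1.04. After recovery 5 rose and 11 fell in WT cells and 2 rose and 6 fell in KO cells. The shares of all genes called were then 46.9% and 40.1%. BMI1, a core subunit of canonical PRC1, fell by 0.81 in WT cells (standard error 0.075, edgeR adjusted p = 1.5e-06) and by 1.05 in KO cells (standard error 0.259, edgeR adjusted p = 0.0097). The recovered KO libraries were far apart for BMI1, from 19.8 to 47.9 CPM.

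Developmental regulators that PRC2 is known to hold silent in embryonic stem cells were listed as 30 genes, of which 17 to 24 passed the filter in the comparisons of 2 groups. In U2OS cells before recovery, 9 of 22 rose and 5 fell in WT cells (12 and 5 of 24 when untreated WT replicate 1 was dropped), and 12 of 22 rose and 7 fell in KO cells. PAX9 rose by 1.29 and 1.54, and TBX5 fell by 1.18 and 1.43. After recovery 4 of 18 rose and 5 fell in WT cells and 6 of 20 rose and 4 fell in KO cells. Of all genes tested, 48.9% in WT cells (66.4% without that replicate) and 69.9% in KO cells were called before recovery. The shares after recovery were 46.9% and 40.1%. PAX7 fell by 0.86 in WT cells and by 0.715 in KO cells. Genes that passed only through the group where they were high had to differ, so these counts are a description.

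The genes most like the catalytic pair over the 24 libraries were named by Pearson r of log2 CPM among 11906 genes at a mean of at least 5 CPM. The libraries fall into 8 groups, and differences between the cell line labels enter every r. PBK, a mitotic kinase (r = 0.963), SGOL1, which protects centromeric cohesion (r = 0.943), ANKRD49 (r = 0.935) and SS18 (r = 0.932) were among the genes most like EZH2. SLC20A1, a phosphate transporter (r = 0.962), DPH1 (r = 0.948), RAD51B (r = 0.942), RP11-357C3.3 and CLIP4 (r = 0.94 each) were most like EZH1.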

How the data were processed

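RNA was sequenced in pairs from stranded total RNA libraries of 24 samples. Per the submitters' processing notes, STAR placed the reads on hg19/GRCh37 and featureCounts counted them by gene. The authors deposited these counts, neither normalized nor pooled, beside TPM scaled to 1 sum in each library, which were used for levels, and other FPKM and TPM columns, which were not. Versions are not given in the sources used here. Counts from either strand went into edgeR 4.0.16 under R 4.3.3 (TMM factors, filterByExpr, robust quasi-likelihood fit, Benjamini-Hochberg adjustment over all genes tested). CPM were computed from the deposited counts. Each comparison of 2 groups used its own 6 libraries, and interactions and differences between responses used 12. Standard errors are the log2 fold change over the square root of F. Steps were tested on simulated data.

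The members and gene lists were chosen with earlier results of these data known. Beside the members, up to 3 genes of each list were named by the largest fold change among those called in a treatment comparison at 1 CPM or more. KDM6A was named after its values were seen. The genes most like EZH2 and EZH1 were named by the highest Pearson r, and 1 of those for EZH2 is not reported here. The alternatives were DESeq2 1.42.0, its size factors in edgeR, other filters, all 4 groups of a line in one fit, reverse-strand counts, the replicate number as a block and each library left out. The counts on the reverse strand were 97.95% to 100.4% of those on either strand for the members. Replicates of every group differed by more than sampling noise.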

Additional observations from a re-analysis of the deposited data

Results flagged for a closer look

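The treatment response differed between the AID-DIvA cells after recovery and the U2OS cells before recovery in 11 of 16 tests of a member within a genotype, each from edgeR's test of the difference itself. These were 5 of 8 members in WT cells, where 42.2% of all genes differed, and 6 of 8 in KO cells, where 52.5% did. In WT cells the response after recovery minus that before recovery was 0.65 for EZH1, 0.39 for EED, -1.45 for JARID2, 1.24 for PHF19 and -0.35 for MTF2. In KO cells it was 0.70 for EZH1, -0.27 for EZH2, -0.40 for SUZ12, -1.18 for JARID2, 1.51 for PHF19 and -0.40 for MTF2. JARID2 and EZH1 changed direction between the 2 responses, JARID2 higher before and lower after recovery in both genotypes, EZH1 lower before and higher after recovery, though its fall in WT cells before recovery did not pass the test. Recovery and the cell line label cannot be told apart in these tests. The calls of EED in WT cells and EZH2 in KO cells were lost when any of 6 and any of 4 single libraries were left out, while the differences stayed between 0.295 and 0.49 and between -0.298 and -0.214. Without recovered AID-DIvA KO replicate 1 the KO difference was -0.262 for SUZ12 and 0.213 for EED (edgeR adjusted p = 0.025), against 0.069 for EED with it.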

How the results depend on the processing

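DESeq2 and DESeq2's size factors kept all 96 member results (8 genes in 12 comparisons) on the same side of the threshold. Over all alternatives other than leaving out a library, 619 member results kept their direction and call, 9 lost the call, 5 gained it and 7, all uncalled, changed sign. The replicate numbers do not pair the samples (correlations of deviations -0.12 to 0.06 in AID-DIvA and -0.02 to 0.11 in U2OS cells). With the replicate number as a block, 92 of 96 results kept their call, while JARID2 (-0.21) and SUZ12 (-0.37) in AID-DIvA KO cells after recovery, EZH2 in treated U2OS WT cells (-0.23) and EED in recovered KO against WT cells (0.39) lost it.

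With a log2 fold change beyond 1 asked as well, the count of members fell to 0 in both AID-DIvA treatment comparisons and all 4 comparisons of genotypes, 2 in U2OS WT, 1 in U2OS KO, and 2 in the difference between responses of each genotype. Leaving out single libraries gave 2 to 6 members in untreated U2OS KO against WT cells and 0 to 1 in the U2OS interaction, both highest when untreated WT replicate 1 was dropped. The sign changed for MTF2 in untreated AID-DIvA KO against WT cells (-0.005 with all 4 groups, 0 with at least 10 counts), for EZH2 in the AID-DIvA interaction (0.004 with at least 10 counts, 0.006 with no filter, 0 on the reverse strand) and for SUZ12 in the U2OS interaction (0 with at least 10 counts, 0.01 with no filter). When 1 library was left out, 708 member results kept their call, 27 lost it, 13 gained it and 20 changed sign. The latter ranged from -0.069 to 0.104 for SUZ12 in treated U2OS WT cells, -0.023 to 0.026 for MTF2 and -0.013 to 0.077 for PHF1 in untreated AID-DIvA KO against WT cells, and -0.139 to 0.077 for PHF1 in untreated U2OS KO against WT cells. In the AID-DIvA interaction they ranged from -0.021 to 0.053 for EZH1 and -0.05 to 0.034 for EZH2. In the U2OS interaction they ranged from -0.107 to 0.03 for EZH1, -0.211 to 0.027 for JARID2, -0.11 to 0.109 for PHF1 and -0.077 to 0.096 for SUZ12. The difference between responses ranged from -0.101 to 0.124 for PHF1 in WT and -0.009 to 0.213 for EED in KO cells. The cause of these changes was not tested. With 3 replicates a group, differences of the size of the members' standard errors, 0.043 to 0.155 on the log2 scale, could not be resolved. Differences well above their standard error could fail too. An example is EZH1 in untreated U2OS KO against WT cells (-0.258, standard error 0.089, edgeR adjusted p = 0.098).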

Other observations

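The enzymes that act against PRC2 were also counted. KDM6A, which removes methyl groups from H3K27, was lower in KO cells in all 4 comparisons of genotypes, by 0.69 in untreated U2OS (edgeR adjusted p = 0.014), 0.97 in treated U2OS (edgeR adjusted p = 3.5e-13), 0.81 in untreated AID-DIvA (edgeR adjusted p = 3.3e-08) and 0.95 in recovered AID-DIvA cells (edgeR adjusted p = 2.1e-05). It was chosen after its values were seen. All 4 genes tested within 1 Mb of KDM6A were lower in KO cells too, with a median log2 difference of -1.41 in untreated AID-DIvA and -1.85 in untreated U2OS cells. KDM6A did not pass the test in any of the 4 treatment comparisons, but without replicate 1 of the untreated U2OS WT cells it rose by 0.142 in treated U2OS WT cells (edgeR adjusted p = 0.013).

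BAP1 and ASXL1, the enzyme and a cofactor that remove the ubiquitin set by PRC1, fell before recovery. BAP1 fell by 0.70 in WT cells (edgeR adjusted p = 0.00011) and by 0.75 in KO cells (edgeR adjusted p = 2.8e-11), and ASXL1 by 0.73 (edgeR adjusted p = 0.0013) and 0.99 (edgeR adjusted p = 1.4e-15). ASXL3, a related cofactor, rose by 1.59 (edgeR adjusted p = 7.1e-05) and 1.28 (edgeR adjusted p = 9.3e-10). Of the 8 genes of this list 1 rose and 2 fell in WT cells and 1 rose and 3 fell in KO cells. The shares of all genes called were 48.9% and 69.9%. Without replicate 1 of the untreated U2OS WT cells, 4 rose and 3 fell in WT cells, where 66.4% of all genes were called.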
